A study of Mus musculus with 12 samples.

Results

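The genes described here encode voltage-gated sodium, calcium and HCN channels and the potassium channels of all classes, with the auxiliary subunits that share their symbols, in the forebrain of WT and Shank2-KO mice. They were taken by symbol, as the protein-coding mouse genes whose names begin with Kcn or Cacna1 or are those of an HCN channel or of a sodium channel alpha or beta subunit, and Kcnj13 and Kcne2, which mark the choroid plexus, were left out. Of the 19312 genes in the deposited table, 108 met this rule and 107 had a mean of at least 10 over the 12 mice. The remaining one, Kcnk15, had a mean of 7.19, and 12 further genes that the annotation holds under the rule were not analysed here.

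RNA-Seq had been performed on 12 male C57BL/6N mice at postnatal day 25 (P25), 3 in each of 4 groups. WT-Veh mice were wild-type mice given vehicle (0.1% saccharin), and WT-Mem mice were wild-type mice given memantine, an NMDA receptor antagonist. KO-Veh and KO-Mem mice were their homozygous Shank2-mutant counterparts, in which exons 6 and 7 of Shank2 are deleted in every cell of the body. Memantine hydrochloride was given by mouth at 20 mg/kg, 2 times a day from P7 to P21, so that tissue was taken 4 days after the last dose, and each library came from 1 brain without pooling. The labels give whole brain as the tissue, whereas the methods describe the forebrain after removal of the cerebellum and the brain stem beneath it.

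Voltage-gated sodium channels carry the rising phase of the action potential through a large pore-forming alpha subunit, and smaller beta subunits set their gating and placement in the membrane. Potassium channels repolarize the cell, set the resting potential and, in glia, take up potassium released by active neurons, while calcium channels couple depolarization to transmitter release and gene expression and HCN channels carry a pacemaker current. Shank2 is a scaffold protein of the excitatory postsynaptic density and is not itself a channel.

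The values are normalized read counts on the scale of the deposited table. A log2 difference is taken on log2(value + 1), and a gene was called when its Benjamini-Hochberg adjusted p from limma, over all genes tested, was under 0.05. Veh-K/W and Mem-K/W compare KO with WT mice on vehicle and on memantine, KO-M/V and WT-M/V compare memantine with vehicle within a genotype, and the genotype average compares the 6 KO mice with the 6 WT mice in a fit of all 12 mice that also holds the treatment. Whether mice shared a litter is not given by the labels. The p-values take the mice of a group as independent and do not account for shared litters. In such bulk tissue, fewer cells of a type and less RNA per cell cannot be told apart.

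Shank2 itself, the targeted gene, ranged from 7156 to 8548 in the WT mice and from 2706 to 3178 in the KO mice, a fall by 1.45 on the log2 scale, so each library matched its genotype label. The KO-Veh replicate 3 library went against the tissue in the methods: markers of cerebellar granule cells stood at 254 (Gabra6), 745 (Cbln3) and 950 (Fat2) in it, and at no more than 12.9, 65.0 and 66.1 in the other 11 libraries. Calls of channel genes below are therefore given with and without it where they change. Of 6 oligodendrocyte markers 5 were called lower in the KO mice, and their sum ranged from 294380 to 407701 in the WT mice and from 237444 to 305397 in the KO mice. Lower calls were also made for 3 of 4 endothelial, 2 of 6 astrocyte, 1 of 4 pericyte and 1 of 5 microglial markers, for 1 of 6 general neuronal markers (Nefl) and, among 6 GABAergic markers, for Pvalb, while Vip and Gad2 were called higher. These calls come from the genotype average, in which 5.73% of the 17655 genes tested were called lower and 4.79% higher. None of 5 glutamatergic, 2 oligodendrocyte precursor, 4 thalamic, 4 striatal or 5 choroid plexus markers was called, and none of 4 hindbrain markers is in the table used here. The part of these differences in the channel results was not tested.

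Channel genes covered a wide range of levels in this tissue. None of the 107 was at 0 in any mouse, 57 had a mean of at least 1000 and 18 a mean under 100. Together they held between 0.924% and 1.01% of the summed values of a mouse, with overlapping ranges in the 4 groups. The coefficient of variation within a group had a median of 8.53% over the channel genes, 5.82% for those with a mean of at least 1000 and 19.8% for those under 100, so that a difference in a weakly expressed gene is known less precisely.

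Levels of different genes can be compared only after division by length, here as the value per kilobase of annotated exon. On this scale the genes ranked 2 to 5 were Kcnab2 at 2108, which encodes a cytoplasmic beta subunit of Kv1 channels, Kcnj4 at 1744, an inward rectifier of neurons, Scn2b at 1648 and Hcn2 at 1506. Kcnj10, the Kir4.1 channel of astrocytes and oligodendrocytes, stood at 1493, next to Hcn2. Among sodium channel alpha genes, the levels per kilobase ran from Scn2a at 914 and Scn8a at 889, the main channels of excitatory axons, through Scn1a at 530.3, which prevails in inhibitory neurons, and Scn3a at 176, to Scn10a at 4.60 and Scn11a at 1.92, channels best known from sensory neurons of the periphery. The least expressed channel genes on this scale were Cacna1f at 1.64, known from the retina, and Kcnn4 and Scn11a just above it.

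For 4 of the genes called below, the promoter sequence of RefSeq (GRCm38.p6) was read, to show what lies upstream of genes that fell (Scn2b, Kcnj10, Kcnc1) and of one that rose (Cacna1b). Each line holds 150 bases 5′ to 3′ on the gene's own strand, ending before the first annotated exon, with the GC box, GGGCGG or its reverse complement CCGCCC, in capitals. The stretches lie at chr9:45117632-45117781 and chr1:172341060-172341209 on the plus strand, chr7:46396318-46396467 on the plus strand and chr2:24763153-24763302 on the minus strand.

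Scn2b: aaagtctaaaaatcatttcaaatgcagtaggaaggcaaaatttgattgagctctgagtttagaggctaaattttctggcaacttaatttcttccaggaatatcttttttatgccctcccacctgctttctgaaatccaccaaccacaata

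Kcnj10: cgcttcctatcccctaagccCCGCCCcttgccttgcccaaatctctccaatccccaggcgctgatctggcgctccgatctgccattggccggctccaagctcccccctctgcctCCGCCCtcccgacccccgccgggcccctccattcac

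Kcnc1: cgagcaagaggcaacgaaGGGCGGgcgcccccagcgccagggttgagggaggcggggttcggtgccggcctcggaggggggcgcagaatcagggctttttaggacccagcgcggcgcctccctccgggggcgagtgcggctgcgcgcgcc

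Cacna1b: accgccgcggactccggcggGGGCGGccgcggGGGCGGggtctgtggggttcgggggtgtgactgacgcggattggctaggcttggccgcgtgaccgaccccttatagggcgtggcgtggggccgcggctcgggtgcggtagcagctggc

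The stretch upstream of Scn2b held no GC box and no CpG at a GC content of 36%, whereas those of Kcnj10, Kcnc1 and Cacna1b held 2, 1 and 2 boxes at 68.7%, 75.3% and 76%. Over windows from 250 bases before to 50 after the start, on both strands, the GC box was found in 35.9% of 27025 promoters and in 39 of the 75 channel genes that the RefSeq table holds (52%). It was found in 4 of the 11 genes called lower and in 1 of the 3 called higher that have a sequence. The TATA box TATAAA was found in 14.2% of all promoters and in 2 of 75 channel genes, the E box CACGTG in 7.24% and in 5 of 75, and the cAMP response element TGACGTCA in 1.88% and in none. The GC box letters were thus spread over genes of both directions, and such a match is a description of the sequence only.

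To determine which channel genes differed between WT and KO mice, the 6 KO mice were compared with the 6 WT mice. Of the 107 channel genes, 17 were called (15.9%), beside 10.5% of the 17655 genes tested. Higher in the KO mice were 6 (5.61%, beside 4.79% of all genes) and lower 11 (10.3%, beside 5.73%). The higher genes included the sodium channel alpha genes Scn3a and Scn10a, the N-type calcium channel gene Cacna1b and the potassium channel genes Kcna5 and Kcnt1. The lower genes were the sodium channel beta genes Scn2b and Scn4b and 9 potassium channel genes, namely Kcna6, Kcnc1, Kcng4, Kcne1l, Kcnip2, Kcnip3, Kcnj10, Kcnk1 and Kcnk13. The median log2 difference over all channel genes was -0.0094, beside 0.0035 over all genes tested, and 52 of 107 lay above 0 (48.6%, beside 50.9%). In this average the channel genes as a group thus did not shift to one side. In Veh-K/W 62 of 107 lay above 0 (median 0.041), beside 8914 of 17671 genes. In Mem-K/W 45 of 107 did (median -0.032), beside 8878 of 17646 genes.

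Without the KO-Veh replicate 3 library, 8 channel genes were called (7.48%, beside 2.99% of all genes). All 8 were among the 17, including Scn2b, Scn4b, Cacna1b, Kcnc1, Kcng4, Kcnj10 and Kcnk13. All 17 kept their direction without this library. Without the KO-Mem replicate 3 library, 25 were called (23.4%, beside 18.5%), which held all 17. Without WT-Veh replicate 2, WT-Mem replicate 1, KO-Mem replicate 1 or KO-Mem replicate 2, 10 of the 17 were called in each case and no other channel gene. These 10 were 9.35%, beside 4.42%, 5.51%, 3.54% and 4.27% of all genes in that order. The values of KO and WT mice did not overlap for 10 channel genes, which were 9.35%, beside 4.06% of all genes. Of these, 2 were higher (1.87%, beside 1.86%) and 8 lower (7.48%, beside 2.2%), and 9 of these 10 were among the 17 called.

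**Figure D1:**
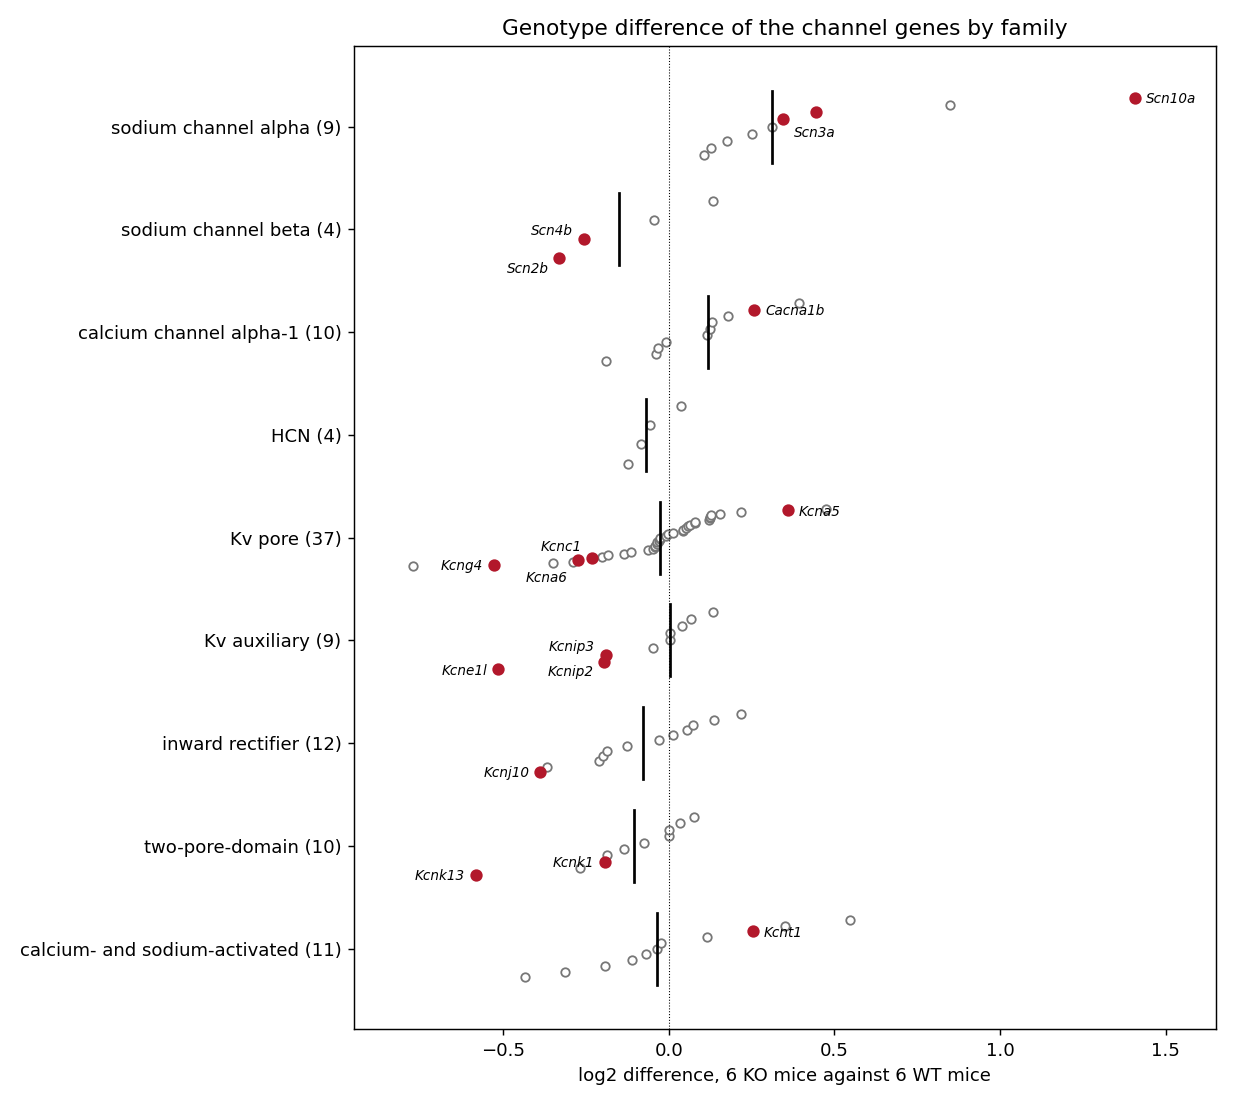
Log2 difference of the 6 KO mice against the 6 WT mice (horizontal axis) for the channel genes in rows by family (Kcnrg, in none of them, is not drawn), with the number of genes in parentheses; filled points were called, open points were not, and vertical bars are family medians. All 9 sodium channel alpha genes lie to the right of 0, at 0.11 to 1.41, and Scn2b and Scn4b lie to the left.

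The sodium channel alpha genes lay to one side. All 9 had a log2 difference above 0 in the genotype average, with a median of 0.31, and all 9 also lay above 0 in Veh-K/W and in Mem-K/W, which share no mice. Of them 3 were called, all higher, beside 4.79% of all genes tested called higher. An unadjusted p under 0.05 was found for 7, a rule that 40 of 107 channel genes met (37.4%, beside 29.4%). In the genotype average the 9 also lay above 0 under each alternative, except that the minimum mean of 50 left 7 genes, all above 0. They lie in groups along the genome, Scn1a, Scn2a, Scn3a, Scn7a and Scn9a on chromosome 2 and Scn10a and Scn11a on chromosome 9, and they are long genes, with a median annotated exon length of 11146 bases beside 5115 over the channel genes.

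Scn3a (ENSMUSG00000057182, chr2:65457118-65567627, GRCm38) encodes Nav1.3, which is abundant before birth and declines as the brain matures. It measured 1990.3, 1800.3 and 1795 in the WT-Veh, 1986, 2362 and 1644 in the WT-Mem, 2437, 2186 and 2277 in the KO-Veh and 2769, 2773 and 2229.9 in the KO-Mem mice. Only the WT-Mem replicate 2 mouse reached into the KO range, and Scn3a rose by 26.9% (log2 difference 0.34, SE 0.082, adjusted p = 0.022). Without KO-Veh replicate 3 the log2 difference of Scn3a was 0.35 with an adjusted p of 0.0543, over the threshold.

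Scn10a (chr9:119608456-119719322), which encodes Nav1.8 of pain-sensing neurons, was called from few mice. It measured 18.8, 14.0 and 13.1 in the WT-Veh, 8.81, 13.3 and 24.8 in the WT-Mem, 33.5, 9.02 and 33.7 in the KO-Veh and 123, 119.9 and 28.2 in the KO-Mem mice. The KO-Mem replicates 1 and 2 stood far above the other 10 mice, and KO-Veh replicate 2 lay within the WT range. Its log2 difference was 1.41 (SE 0.41) with an adjusted p of 0.0427, and the adjusted p was 0.11 without KO-Veh replicate 3. It passed under 6 of its 18 alternatives.

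The 3 most abundant alpha genes had smaller differences and were not called. Scn1a, whose loss of function causes Dravet syndrome, had a mean of 5554 ± 394 (SD, n = 6) in the WT and 6267 ± 389.8 in the KO mice (log2 difference 0.17, SE 0.056, adjusted p = 0.0601). Scn2a had a log2 difference of 0.11 (SE 0.055) and Scn8a, the channel of nodes of Ranvier, of 0.13 (SE 0.055), with adjusted p-values of 0.222 and 0.139. Their KO and WT ranges overlapped, since WT-Veh replicate 1 and WT-Mem replicates 1 and 2 lay within the KO range.

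The beta subunit genes divided. Scn2b (ENSMUSG00000070304, chr9:45117782-45130070) encodes a beta subunit that is bound to the alpha subunit by a disulfide bond. It measured 8551, 8808 and 8403 in the WT-Veh, 8544, 8548 and 8276 in the WT-Mem, 7549, 7636 and 7099 in the KO-Veh and 5383, 6165 and 7124 in the KO-Mem mice. No KO mouse reached the lowest WT mouse, and Scn2b fell by 20.5% (log2 difference -0.33, SE 0.056, adjusted p = 0.00826 by limma). Scn4b (ENSMUSG00000046480, chr9:45138395-45154152), the next such gene on chromosome 9, encodes the other disulfide-linked beta subunit, which takes part in resurgent sodium current. It measured 6411, 6884 and 6952 in the WT-Veh, 6170.1, 5967 and 6159 in the WT-Mem, 5889, 6092 and 5080.0 in the KO-Veh and 4929, 5161 and 5162 in the KO-Mem mice. KO-Veh replicate 2 was just above the lowest WT-Mem mouse and the other 5 KO mice were below all WT mice, giving a fall by 16.3% (log2 difference -0.26, SE 0.047, adjusted p = 0.00983).

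The beta genes other than these were not called. Scn3b, whose product is bound without a disulfide bond, had a log2 difference of 0.13 (SE 0.042) with an adjusted p of 0.0535. Without KO-Veh replicate 3, Scn2b and Scn4b kept log2 differences of -0.31 and -0.22 with adjusted p-values of 0.0286 and 0.0286.

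**Figure D2:**
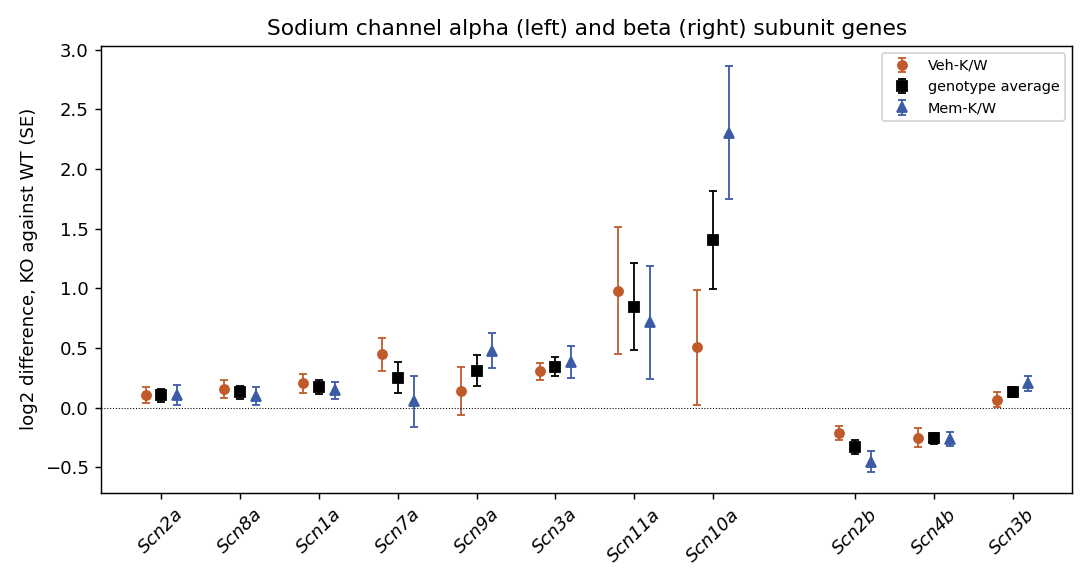
Log2 difference of KO against WT mice (vertical axis) with its standard error for sodium channel alpha genes (left) and beta genes (right), in Veh-K/W (circles), Mem-K/W (triangles) and the genotype average (squares). The alpha genes lie above 0 in each comparison, with wide errors for Scn10a and Scn11a, and Scn2b and Scn4b lie below 0.

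Of the 10 calcium channel alpha-1 genes 1 was called, beside 10.5% of all genes tested. Cacna1b (ENSMUSG00000004113, chr2:24603887-24763152) encodes the N-type channel Cav2.2 of presynaptic terminals. It measured 6264, 5763 and 5933 in the WT-Veh, 6350.0, 6612 and 5317 in the WT-Mem, 6831, 7163 and 7084 in the KO-Veh and 7966, 7226 and 6995 in the KO-Mem mice. All KO mice were above all WT mice, and Cacna1b rose by 19.5% (log2 difference 0.26, SE 0.055, adjusted p = 0.0152 by limma). The family had a median log2 difference of 0.12, with 6 of 10 genes above 0. The P/Q-type gene Cacna1a, which shares the presynaptic role, had -0.0094 (SE 0.045), the L-type gene Cacna1c 0.12 (SE 0.072) and the T-type gene Cacna1g -0.040 (SE 0.083), with adjusted p-values of 0.914, 0.272 and 0.782.

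No HCN gene was called. The median log2 difference of the 4 was -0.069, and 0 of 4 had an unadjusted p under 0.05 in the genotype average. Hcn2, found in cortex and in thalamic relay cells, measured 5026 ± 523 in the WT and 4600.0 ± 322 in the KO mice (SD, n = 6), with a log2 difference of -0.12 (SE 0.066) and an adjusted p of 0.229. The difference in means was smaller than the SD over the WT mice.

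Among the 37 genes of voltage-gated potassium channel pore subunits, 3 were called lower and 1 higher, beside 5.73% and 4.79% of all genes tested. The median log2 difference was -0.026. Kcnc1 (ENSMUSG00000058975, chr7:46396497-46438704) encodes Kv3.1, which allows fast-spiking interneurons to fire at high rates. It measured 7615, 7207 and 7603 in the WT-Veh, 7228, 6864 and 7107 in the WT-Mem, 6509.8, 6999 and 6468 in the KO-Veh and 5469, 5524 and 6310.3 in the KO-Mem mice. KO-Veh replicate 2 overlapped the lowest WT-Mem mouse and the other 5 KO mice lay below all WT mice, a fall by 14.8% (log2 difference -0.23, SE 0.045, adjusted p = 0.0109 by limma). Beside it, Pvalb, the marker of many fast-spiking cells, had a log2 difference of -0.35, and the summed level of the 6 GABAergic markers ranged from 25080 to 28479 in WT and from 27356 to 29502 in KO mice. The Kv3 genes Kcnc2 and Kcnc4 were not called, with -0.026 and -0.049.

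Kcna6, which encodes the Kv1.6 subunit of axons and dendrites, measured 3510.4, 3857 and 3218 in the WT-Veh, 3699.7, 3648 and 3604 in the WT-Mem, 3399, 3382 and 3318 in the KO-Veh and 2187, 2752 and 2956 in the KO-Mem mice. The KO-Mem mice were below all other mice, whereas the KO-Veh mice overlapped WT-Veh. Its log2 difference was -0.27 (SE 0.066) with an adjusted p of 0.0236, and 0.0631 without KO-Veh replicate 3. Kcng4, whose Kv6.4 subunit forms no channel alone and modifies Kv2 channels, measured 298, 396 and 401, then 298, 263 and 330.5, then 235, 315 and 342, then 138, 168 and 229 over the groups in that same order. The KO-Mem mice were again lowest, and the log2 difference was -0.53 (SE 0.13, adjusted p = 0.0274).

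Kcna5, which encodes Kv1.5, was the only pore gene called higher, at 153, 125 and 185 in the WT-Veh, 209, 177 and 187 in the WT-Mem, 181, 216 and 225 in the KO-Veh and 258, 236 and 207 in the KO-Mem mice. WT-Mem replicates 1 and 3 and WT-Veh replicate 3 reached into the KO range, the log2 difference was 0.36 (SE 0.11, adjusted p = 0.0467), and the call was lost without KO-Veh replicate 3 (adjusted p = 0.117). Kcna1, a Kv1.1 gene linked to episodic ataxia that lies beside Kcna5 and Kcna6 on chromosome 6, had 0.22 (SE 0.078) with an adjusted p of 0.0835. Kcna2, its usual partner in axonal channels, had -0.043 (SE 0.056) with an adjusted p of 0.645.

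Kcnq3, a gene of the M-current, which restrains repetitive firing, had a log2 difference of 0.053 (SE 0.063), and Kcnd2, the Kv4.2 gene of A-type channels in dendrites, of 0.065 (SE 0.073). Their adjusted p-values were 0.604 and 0.584, and both differences were smaller than their standard errors. Kcnq1, with the most negative value of the family at -0.77 (SE 0.34) and an adjusted p of 0.151, was weakly expressed, at a mean of 20.2 in WT and 12.6 in KO mice. It lies 0.575 Mb from Shank2 on chromosome 7, so the Shank2 deletion and chromosome 7 sequence carried along with it cannot be told apart, while the next nearest channel gene, Kcnc1, lies 97.6 Mb away.

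Of the 9 auxiliary subunit genes of Kv channels 3 were called, all lower, beside 5.73% of all genes tested called lower. The median log2 difference was 0.0023. Kcnip2 and Kcnip3 encode KChIP proteins, calcium-binding subunits of the Kv4 channels, and KChIP3 is also known as the transcriptional repressor DREAM. Kcnip3 measured 3298, 3383 and 3684 in the WT-Veh, 3343, 3206 and 3467 in the WT-Mem, 2838, 2956 and 2918 in the KO-Veh and 3091, 3157 and 2904 in the KO-Mem mice. Kcnip2 measured 3486, 3889 and 4049, then 3525, 3413 and 3651, then 3382, 3312 and 2933, then 3026, 3266 and 3293 in the same order of groups. For both, all KO mice lay below all WT mice by a small margin, with log2 differences of -0.19 (SE 0.043) and -0.20 (SE 0.051) and adjusted p-values of 0.0189 and 0.0303.

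Kcne1l, a single-span subunit gene on the X chromosome that is also named Kcne5, fell by 30% from 215 ± 38.3 to 150.1 ± 23.9 (SD, n = 6, adjusted p = 0.0252 by limma), without overlap. Without KO-Veh replicate 3 the adjusted p-values of Kcnip3, Kcnip2 and Kcne1l were 0.0505, 0.0858 and 0.0707, all over the threshold. The genes Kcnip1 and Kcnip4 of the same KChIP family were not called, at 0.13 and 0.0023.

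Of the 12 inward rectifier genes 1 was called (beside 10.5% of all genes tested), 5 lay above 0 and the median log2 difference was -0.077. Kcnj10 (ENSMUSG00000044708, chr1:172341210-172374085) encodes Kir4.1, through which astrocytes and oligodendrocytes take up extracellular potassium. It measured 9046, 9482 and 9815 in the WT-Veh, 9051, 8720.0 and 8564 in the WT-Mem, 7122, 8218 and 7823 in the KO-Veh and 5511, 5956 and 7554 in the KO-Mem mice. All KO mice lay below all WT mice, the KO-Mem replicates 1 and 2 lowest, and Kcnj10 fell by 23.6% (log2 difference -0.39, SE 0.066, adjusted p = 0.00827 by limma). Kcnj16, whose product joins Kir4.1 in glia, had -0.13 (SE 0.079) with an adjusted p of 0.311, and Kcnj9, which lies next to Kcnj10 on chromosome 1, 0.013 (SE 0.049). Beside Kcnj10, the astrocyte markers Aqp4 and Gja1 were called lower, with log2 differences of -0.56 and -0.22. The astrocyte markers Gfap (-0.12), Aldh1l1 (-0.16), Slc1a3 (0.11) and Sox9 (0.067) were not called. The summed level of the 6 astrocyte markers ranged from 32543 to 35916 in WT and from 31197 to 32978 in KO mice, next to the lower oligodendrocyte markers given above. The part of these markers in the Kcnj10 difference was not tested.

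Of the 10 two-pore-domain genes, which encode leak channels, 2 were called, both lower, beside 5.73% of all genes tested called lower. Of these genes 4 lay above 0, and the median log2 difference was -0.10. Kcnk13 encodes THIK-1, which is known as the main potassium channel of resting microglia. It measured 197, 249 and 218 in the WT-Veh, 169.6, 210.5 and 223 in the WT-Mem, 167, 137 and 165 in the KO-Veh and 93.3, 137 and 154 in the KO-Mem mice. The highest KO mouse lay just below the lowest WT mouse, and Kcnk13 fell by 33.3% (log2 difference -0.58, SE 0.13, adjusted p = 0.0165 by limma). Beside it, the microglial marker P2ry12 had a log2 difference of -0.51, and the 5 microglial markers summed to 5187 to 6155 in WT and 3966 to 5290 in KO mice, with Aif1, Csf1r, Cx3cr1 and Tmem119 not called.

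Kcnk1, the TWIK-1 gene, measured 2746, 2744 and 2703 in the WT-Veh, 2866, 2901 and 3080.2 in the WT-Mem, 2566, 2681 and 2413 in the KO-Veh and 2325, 2394 and 2529.7 in the KO-Mem mice. The groups did not overlap by genotype, the log2 difference was -0.19 (SE 0.043, adjusted p = 0.0174), and without KO-Veh replicate 3 the adjusted p was 0.0543. Kcnk4, the gene of the mechanosensitive channel TRAAK, also had no overlap between KO and WT mice and did not pass (log2 difference -0.27, SE 0.088, adjusted p = 0.0643).

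Among the 11 calcium- and sodium-activated channel genes, 1 was called, Kcnt1, which was higher (beside 4.79% of all genes tested called higher). The median log2 difference of the 11 was -0.034. Kcnt1 encodes Slack, a sodium-activated potassium channel whose gain of function causes severe epilepsy in infancy. It measured 7038, 6069 and 8123 in the WT-Veh, 6978, 6808 and 6743 in the WT-Mem, 7919, 7308 and 8273 in the KO-Veh and 9951, 8806 and 7590.5 in the KO-Mem mice. WT-Veh replicate 3 lay within the KO range and the KO-Mem replicates 1 and 2 were highest, with a log2 difference of 0.25 (SE 0.073, adjusted p = 0.041, and 0.104 without KO-Veh replicate 3). The BK channel gene Kcnma1 had 0.11 (SE 0.068) and the SK2 gene Kcnn2 -0.024 (SE 0.054), with adjusted p-values of 0.279 and 0.801. Kcnrg, which encodes a potassium channel regulator outside these families, had 0.15 (SE 0.23) and was not called.

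A list of 25 genes whose products bind or traffic these channels, such as the calcium channel beta and alpha-2-delta subunits, DPP and FGF homologous proteins and ankyrins, gave no call in the genotype average. Its median log2 difference was 0.0026, beside 0.0035 over all genes tested, and its values ran from -0.20 (Cacna2d4) to 0.25 (Cntnap2, a Kv1 clustering protein, adjusted p = 0.0826).

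**Figure D3:**
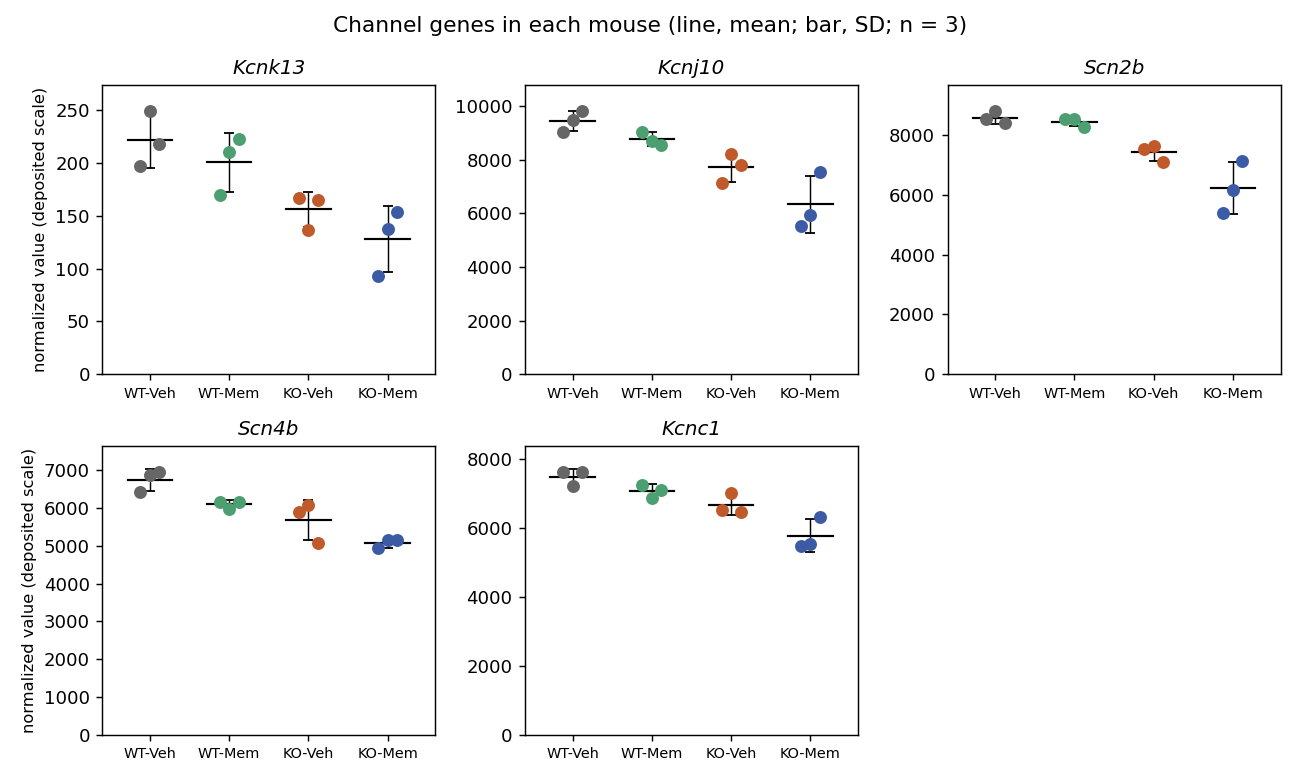
Normalized value (vertical axis, from 0) in each of the 3 mice of the 4 groups for 5 channel genes that were called under each of the 19 alternatives; lines are means and bars SDs. Kcnk13, Kcnj10 and Scn2b show no overlap between the 6 KO and the 6 WT mice, and in Scn4b and Kcnc1 KO-Veh replicate 2 reaches the lowest WT-Mem mouse.

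To compare the genotype difference without and with memantine, Veh-K/W and Mem-K/W were fitted on their own 6 mice. In Veh-K/W 0 of 107 channel genes were called by limma, beside 0.0283% of 17671 genes, and 21 had an unadjusted p under 0.05 (19.6%, beside 14.4%). In Mem-K/W 0 of 107 were called, beside 0.068% of 17646 genes, and 29 had an unadjusted p under 0.05 (27.1%, beside 21%). The smallest adjusted p-values were those of Kcnj10 and Scn3a in Veh-K/W (0.157 for both) and of Scn2b, Kcna6 and Kcnj10 in Mem-K/W (0.0884 for each). Without KO-Veh replicate 3 the number called in Veh-K/W was also 0, and 13 of 106 had an unadjusted p under 0.05 (12.3%, beside 8.62%). Without KO-Mem replicate 1, 19 of 107 did in Mem-K/W (17.8%, beside 12.3%). The calls named above come from the fit of all 12 mice.

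The Mem-K/W result depended on 1 mouse. KO-Mem replicate 3 had values for Scn2b, Kcnj10, Kcnc1 and Kcna6 that were nearer to WT mice than those of the other KO-Mem mice. Without this library, 17 of 106 channel genes were called (16%, beside 10.8% of all genes). Of these 13 were lower and 4 higher, beside 860 higher among the 1911 genes called in all. Also among the calls of the genotype average, a fit that holds the same mice, were 13 of the 17. The 4 others were Cacna1g at -0.29, Kcnv1 at -0.49, Kcns3 at -0.67 and Kcng1 at -0.67. In a single fit of all 12 mice, 8 were called (7.48%, beside 3.6%), namely Scn2b, Scn4b, Kcna6, Kcnc1, Kcng4, Kcnj10 and Kcnk1, which were lower, and Scn10a, which was higher.

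The direction on vehicle was also that on memantine for 72 of 107 channel genes (67.3%), beside 70% of all genes, and Pearson's r between the log2 differences was 0.467 over the channel genes and 0.437 over all genes. These are descriptions over genes of 2 comparisons that share no mice. All 17 genes of the genotype average had the same direction in both, which their choice on the average favours, and 12 of 17 had the larger difference in Mem-K/W. Differences were larger in Mem-K/W over all genes tested too, with a median absolute log2 difference of 0.157, beside 0.125 in Veh-K/W. Over the channel genes these medians were 0.157 and 0.113. Scn2b had -0.21 (SE 0.058) in Veh-K/W and -0.45 (SE 0.091) in Mem-K/W, Kcna6 -0.064 (SE 0.073) and -0.48 (SE 0.10), and Kcng4 -0.30 (SE 0.16) and -0.76 (SE 0.18). The 5 that were larger in Veh-K/W included those of Kcnip3, at -0.25 (SE 0.064) and -0.13 (SE 0.065), and of Kcne1l, at -0.56 (SE 0.18) and -0.47 (SE 0.17).

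All 10 two-pore-domain genes lay below 0 in Mem-K/W, with a median of -0.19, beside 8768 of 17646 genes tested. In Veh-K/W 4 of 10 did, with a median of 0.032, beside 8757 of 17671 genes. None of the 10 was called in Mem-K/W, and 4 had an unadjusted p under 0.05 by limma (beside 21% of all genes). Non-overlapping lower values in Mem-K/W were found for 27 of 107 channel genes (25.2%), beside 13.5% of all genes, and higher ones for 9 (8.41%, beside 12.7%). In all, 36 genes did not overlap in Mem-K/W (33.6%, beside 26.2%) and 18 in Veh-K/W (16.8%, beside 20.4%), where 10 were lower (9.35%, beside 10.7%) and 8 higher (7.48%, beside 9.73%).

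Whether the genotype difference itself changed with memantine was tested by the interaction term of the fit of all 12 mice. No channel gene was called by limma, beside 0% of 17655 genes, and 8 had an unadjusted p under 0.05 (7.48%, beside 4.76%). The smallest p was that of Kcnk10, the TREK-2 gene, at 0.00371, with a log2 difference of 0.26 in Veh-K/W and -0.26 in Mem-K/W. It measured 278, 254 and 272 in the WT-Veh, 308, 300.0 and 286 in the WT-Mem, 313, 300.1 and 353 in the KO-Veh and 246, 229 and 275 in the KO-Mem mice. KO-Veh mice thus lay above all WT-Veh mice and KO-Mem mice below all WT-Mem mice. The interaction of Kcnk10 was -0.52, and -0.45 without KO-Veh replicate 3. Kcna6 and Kcnn2 followed, with interactions of -0.42 (SE 0.13) and -0.30 (SE 0.11) and an adjusted p of 0.947. Leaving out 1 mouse, the count of 8 fell to 4 without WT-Veh replicate 3 (3.74%, beside 4.01%) or KO-Veh replicate 2 (3.74%, beside 3.84%). It fell to 5 without WT-Veh replicate 1 (4.67%, beside 5.37%) or KO-Mem replicate 2 (4.67%, beside 3.86%). Without KO-Veh replicate 3 the count was 10 (9.35%, beside 5.29%). It rose to 14 without WT-Mem replicate 3 (13.1%, beside 6.23%) and to 17 without KO-Mem replicate 3 (15.9%, beside 9.95%). Over the channel genes the interaction lay above 0 in 34 of 107 (31.8%), beside 48.9% of all genes tested.

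**Figure D4:**
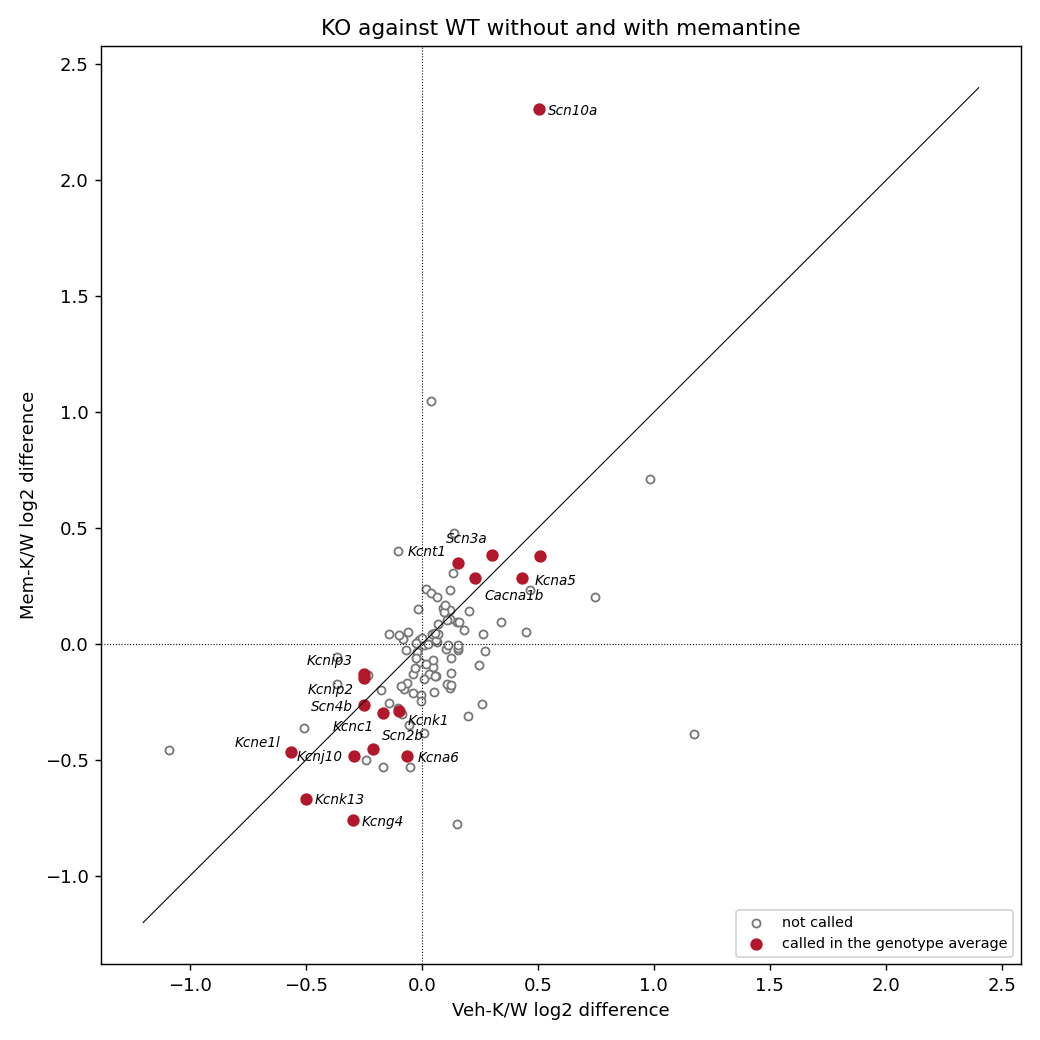
Log2 difference in Veh-K/W (horizontal axis) and in Mem-K/W (vertical axis) for the 107 channel genes; filled points are the 17 called in the genotype average, and the line marks equal differences. All 17 have the same sign on both axes, and Scn10a stands apart at 0.51 and 2.31.

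Memantine within a genotype called no channel gene. In KO-M/V 0 of 107 were called, beside 0% of 17707 genes, and 12 had an unadjusted p under 0.05 (11.2%, beside 8.88%). In WT-M/V 0 of 105 were called, beside 0.0114% of 17564 genes, and 3 had an unadjusted p under 0.05 (2.86%, beside 3.97%). In the average over both genotypes 0 of 107 were called, beside 0% of 17655 genes, and 11 had an unadjusted p under 0.05 (10.3%, beside 8.68%). The KO-M/V count of 12 was 26 without KO-Mem replicate 3 (24.3%, beside 18.7%) and 7 without KO-Mem replicate 2 (6.54%, beside 5.4%). Without KO-Veh replicate 3 it was 11 (10.3%, beside 8.54%), and the memantine average count of 11 was 14 (13.1%, beside 8.74%). The WT-M/V count of 3 was 10 without WT-Mem replicate 3 (9.52%, beside 5.65%) and 7 without WT-Veh replicate 1 (6.67%, beside 5.31%). It was 1 without WT-Veh replicate 3 (0.952%, beside 3.43%) or WT-Mem replicate 1 (0.943%, beside 3.21%). Each of these results comes from limma, and KO-M/V shares its KO-Mem mice with Mem-K/W and its KO-Veh mice with Veh-K/W.

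The genes with the smallest p-values in KO-M/V were Kcna6 (-0.37, SE 0.10), Kcng4 (-0.75, SE 0.21) and Cacna1h (0.22, SE 0.062), a T-type calcium channel gene, each with an adjusted p of 0.554. Cacna1h measured 3892, 3392 and 3625 in KO mice on vehicle and 4353, 4103 and 4229 in those on memantine, which did not overlap, and 3704, 3546 and 3349 and 3606, 3701 and 3562 in WT-Veh and WT-Mem mice, which did. In WT-M/V they were Cacna1s (0.55, SE 0.22), Scn4b (-0.15, SE 0.063) and Kcnh8 (0.54, SE 0.24), each with an adjusted p of 0.978. In the memantine average they were Kcng4 (-0.52, SE 0.13, adjusted p = 0.401), Kcnc1 (-0.15, SE 0.045) and Scn4b (-0.15, SE 0.047), all lower in the KO mice too. Without KO-Mem replicate 3, Kcnj10 was called in KO-M/V at -0.43 (adjusted p = 0.0462), and Kcnj10 and Kcng4 were called in the memantine average at -0.27 and -0.62 (adjusted p = 0.0284 and 0.038).

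Long genes tended to be higher in the KO mice. Over 13317 protein-coding genes with a mean of at least 50, Spearman's rho between the genotype difference and annotated exon length was 0.238, and over the 97 channel genes with such a mean it was 0.376, as a description over genes that share libraries. The 6 genes called higher had a median exon length of 9132 bases and the 11 called lower of 3806 bases. The libraries differed among themselves in the same measure, since the rho between a mouse's deviation and exon length was -0.482 in WT-Mem replicate 3, -0.221 and -0.229 in WT-Veh replicates 2 and 3, and between -0.0225 and 0.175 in the other 9. With the trend in length and GC content removed from each mouse, all 17 genes were called. All 9 sodium channel alpha genes still lay above 0, with a median of 0.25, beside 0.31 before removal. The log2 difference of Scn1a went from 0.17 to 0.13, that of Scn2a from 0.11 to 0.052 and that of Scn8a from 0.13 to 0.084. These 3 genes were again not called.

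**Figure D5:**
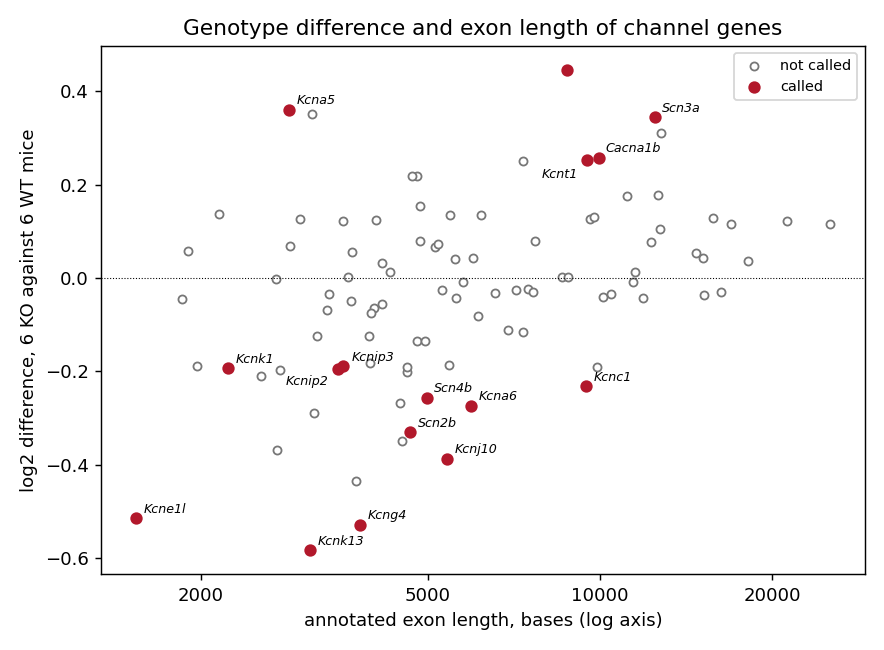
Log2 difference of the 6 KO against the 6 WT mice (vertical axis) and annotated exon length in bases (horizontal axis, log scale) for the 97 channel genes with a mean of at least 50, which leaves out Scn10a; filled points were called. The called genes that are higher, other than Kcna5, lie towards the right, and most of those that are lower lie towards the left.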

How the data were processed

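RNA-Seq of 12 mice, 3 in each of 4 groups, was analysed from gene-level values. The authors quantified transcripts with Salmon (1.1.0) with GC bias correction on GRCm38, imported them with tximport and normalized them with DESeq2 (1.26.0 in the submitters' processing notes). The deposited signal is this normalized read count, with 1 column per mouse, not log transformed and not whole, so count tests were not used. The depth of each library is unknown, since the scaled values summed to 30373849 to 31199251 in each mouse. Symbols, positions and exon lengths were taken from GENCODE M21, which matched 19295 of 19312 genes.

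Genes with a mean of at least 10 over the mice of a fit were tested with limma (3.58.1, R 4.3.3; eBayes with trend) on log2(value + 1), with Benjamini-Hochberg adjustment over all genes and a threshold of 0.05. The 4 two-group comparisons used their own 6 mice. The genotype average, the memantine average and the interaction used all 12 mice. Genes named are those called, the 3 with the smallest p where a comparison called none, and a set of well-known brain channels, and other genes were named for their place in a family after their values were seen. The channel genes and the lists of markers and partners were chosen with earlier results of these data known. Some channel genes count in totals but are not reported here by name. Groups and numbers came from the labels. Same-numbered mice did not deviate together (18 pairs, r = -0.268 to 0.195, 2 over 0.1), so the numbers were not used to pair mice. The scripts were tested on simulated data. Alternatives were a pseudocount of 5, a minimum mean of 50 or none, quantile normalization, eBayes without trend, a replicate block, 1 fit of all 12 mice, leaving out each mouse and, added after seeing the data, removal of trends in length and GC content by splines with 4 degrees of freedom.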

Additional observations from a re-analysis of the deposited data

How the results depend on the processing

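Over 46 named values and their alternatives (817 pairs), 723 kept direction and side of the threshold, 73 lost their call, 12 gained one and 9 changed direction, all 9 in genes that were not called. The 17 genotype calls kept their direction under each alternative (Scn10a was not tested at a minimum mean of 50), and of those named 5 (Scn2b, Scn4b, Kcnc1, Kcnj10 and Kcnk13) kept their call under all 19. Calls in the genotype average over all genes were 1856 and over channel genes 17. Without the eBayes trend they were 670 and 8, and leaving out 1 mouse gave 528 to 3263 and 8 to 25. The lowest counts came without KO-Veh replicate 3 and the highest without KO-Mem replicate 3, and the cause was not tested.

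Replicate numbers did not pair the mice, and 4 of 12 mice correlated best with a mouse of their own number. With a replicate block the genotype average called 15 channel genes and 1728 genes in all, Veh-K/W 2, Mem-K/W 4 and WT-M/V 1 in all. In Veh-K/W, 5 genes in all were called, and 3 with a pseudocount of 5, 2 with a minimum mean of 50, 2 in 1 fit of all 12 mice and 2 to 53 leaving out 1 mouse. In Mem-K/W, 12 genes in all were called, and 5 without a minimum, 4 without trend, 21 with length and GC trends removed, 636 (8 channel genes) in 1 fit of all 12 mice and 2 to 1911 (0 to 17 channel genes) leaving out 1 mouse. In WT-M/V, 2 were called, and 1 with a pseudocount of 5, 0 with a minimum of 50, 1 with quantile normalization, 0 in 1 fit and 1 to 3 leaving out 1 mouse. Leaving out 1 mouse gave 0 to 97 (0 to 1 channel genes) in KO-M/V, 0 to 120 (0 to 2) in the memantine average and 0 to 4 in the interaction, where each had called 0. With length and GC trends removed, the log2 difference changed sign for Kcnq3 (-0.0037). Leaving out 1 mouse gave -0.038 to 0.010 for Cacna1a, -0.12 to 0.015 for Cacna1g, -0.0098 to 0.10 for Kcnd2, -0.0052 to 0.090 for Kcnq3 and -0.059 to 0.00087 for Kcnn2. No alternative could recover depth, and weakly expressed channel genes (mean under 100) had a median standard error of 0.22 on the log2 scale, beside 0.056 at a mean of at least 1000.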
